A study of Mus musculus with 27 samples.

Results

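The 10 genes described here are the mouse Toll-like receptor genes Tlr1, Tlr2, Tlr3, Tlr4, Tlr6, Tlr7, Tlr8, Tlr9, Tlr12 and Tlr13, taken by symbol from the 56691 genes of the count table. All 10 passed the filter on low counts and were among the 17573 genes tested. They were read in microglia, the resident macrophages of the brain, sorted from tissue around an intracerebral hemorrhage (ICH) in wild-type mice, in a study of the gut microbiota and these cells. Mice were specific pathogen-free (SPF) with no pretreatment, given an antibiotic cocktail (ABX), or kept germ-free (GF). In each of these 3 conditions there were 3 libraries at day 3 and 3 at day 7 after collagenase, which breaks vessel walls and causes the bleed, and 3 from sham mice given PBS. Shams are labelled day 7 only, so each comparison of day 3 with sham also differs in day. The labels do not say whether libraries of a group came from separate or pooled animals, so p-values measure only the spread between these libraries.

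Toll-like receptors bind molecules of microbes and of damaged cells and start the inflammatory program of macrophages. Tlr2, paired with Tlr1 or Tlr6, binds bacterial lipoproteins at the cell surface, and Tlr4, with Ly96 and Cd14, binds lipopolysaccharide. The others sit in endosomes and depend on the chaperone Unc93b1: Tlr3 binds double-stranded RNA, Tlr7 and Tlr8 single-stranded RNA, Tlr9 unmethylated CpG DNA, Tlr12 a protozoan profilin and Tlr13 bacterial ribosomal RNA. All but Tlr3 signal through the adaptor Myd88, and Tlr3 and Tlr4 use Ticam1.

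Tlr2 rose at day 7 after ICH over the 3 conditions together, and within ABX and within GF mice. Of all genes, 20.2%, 0.945% and 14.4% were called in these comparisons. Tlr13 rose from day 3 to day 7 over the 3 conditions and within GF mice (20.1% and 15.3% of genes called). It was not called within ABX or SPF mice. At day 7 it was higher in GF than in SPF mice by 3.26 ± 0.55 on the log2 scale (SE), where 12.9% of genes were called. Tlr4 rose from day 3 to day 7 in the same comparisons, but these calls were lost with offsets for GC content per library. Tlr9 and Tlr12 fell at day 7 against sham. No test passed for Tlr1, Tlr3, Tlr6, Tlr7 or Tlr8 in any of the 24 comparisons over all 27 libraries. Calls are those of edgeR's quasi-likelihood test at an adjusted p (Benjamini-Hochberg, over all 17573 genes) under 0.05. Levels are CPM from edgeR, which relate counts to library totals scaled with TMM factors, given for the 3 libraries of a group in the order of their labels.

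The libraries hold 41664864 to 79090595 counts each, so a floor of 3 counts lies at 0.0338 to 0.142 CPM, for counting error only. The genes with at least 1 count ranged from 9185 to 18408 per library and were under 12000 in 7 libraries. These are every library of GF ICH day 7, with replicates 1 and 2 of GF sham and the same numbers of ABX ICH day 7. The microglial markers P2ry12 (1173 to 18484 CPM), Tmem119 (245 to 9528 CPM) and Cx3cr1 (217 to 12857 CPM) had counts in every library. Csf1r, a receptor that macrophages share, ranged from 4.48 to 16266 CPM and was lowest in replicate 3 of GF ICH day 7. The summed level of 8 neutrophil markers was 919 to 3458 CPM in GF ICH day 7 and 104 to 124 CPM in SPF ICH day 7. In the 3 GF libraries S100a8 was at 1131, 1512 and 419 CPM, whereas Mmp9 was at 0 in all 3 and Ly6g in 2 of them. The summed level of 8 monocyte markers was 481 to 1877 CPM in GF ICH day 7, 14.9 to 809 CPM in ABX ICH day 7 and 23.0 to 124 CPM in SPF ICH day 7. Their part in the results on day 7 below was not tested. In bulk RNA, a change in the share of cells that carry a transcript and a change in RNA per cell cannot be told apart.

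Per kilobase of annotated exon, Tlr2 had the highest mean level of the 10 genes, at 166 CPM per kb over the 27 libraries. Tlr13 followed at 62.8 and Tlr7 at 58.5 CPM per kb. Tlr1 was at 20.7, Tlr4 at 15.3, Tlr3 at 13.1 and Tlr6 at 5.34 CPM per kb. The CpG DNA receptor Tlr9 was at 1.11 and Tlr12 at 1.38 CPM per kb, and Tlr8 at 0.149 CPM per kb. By medians, Tlr7 (28.7) and Tlr13 (28.5 CPM per kb) were level, and Tlr2 was still highest at 134 CPM per kb. Of the 10 genes only Tlr1, Tlr2, Tlr4, Tlr7 and Tlr13 had counts in every library.

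Tlr2 lies at chr3:83836272-83841767 on the minus strand (GRCm38, GENCODE M21). The stretch of its RefSeq promoter window that lies upstream of the annotated gene, chr3:83841768-83841858 on the minus strand (GRCm38.p6), is shown because Tlr2 rose at both days. Capitals mark 2 overlapping matches to the κB consensus, the motif of NF-κB factors, searched on both strands. One more match, GGGACATCCC, starts 8 bases before the RefSeq start site.
Tlr2: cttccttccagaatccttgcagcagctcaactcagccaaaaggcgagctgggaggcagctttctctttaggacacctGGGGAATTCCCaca
The consensus is found in 8.46% of 32851 promoter windows of 300 bases and in those of Tlr2 and Tlr3 among the 8 members with a window. At least 3 matching positions are found in 0.186% of windows. A match is a description of letters and not a measured binding site.

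Tlr2 transcripts stood at 122, 218 and 141 CPM in SPF sham, at 543, 451 and 437 CPM at day 3, and at 436, 328 and 537 CPM at day 7. In ABX mice they were at 204, 211 and 149.6 CPM in sham, 477, 660.4 and 283 CPM at day 3, and 2557, 1160.3 and 1419.9 CPM at day 7. In GF mice they were at 9.95, 202 and 129 CPM in sham, 256, 461 and 264 CPM at day 3, and 405, 614 and 859.5 CPM at day 7. The TMM factors of ABX ICH day 7 were 0.476 to 0.843. Without TMM factors Tlr2 was at 914 to 1218 CPM in ABX ICH day 7 and at 192 to 243 CPM in ABX sham. In each condition all libraries after ICH lay above all sham libraries, at both days. Over the 3 conditions, Tlr2 rose by 1.48 ± 0.36 on the log2 scale at day 3 (edgeR adjusted p = 0.0369), the only one of the 10 genes called, where 1.3% of all genes were. It was also the only member above sham without overlap in all 3 conditions, as were 1.7% of genes. The call at day 3 was lost in 14 of 18 fits that each leave out 1 library, with DESeq2 size factors (1.40, adjusted p = 0.0567) and with no filter on low counts (adjusted p = 0.0589). Without the 7 libraries under 12000 detected genes the value was 1.41, with 1 library left in GF sham.

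Markers of cell types also differed between day 3 and sham. The microglial marker P2ry12 was at 6023 to 10213 CPM in SPF sham and at 1765 to 3037 CPM at day 3, and was lower in ABX and GF mice as well. The summed level of 8 microglial markers was 43867 to 54903.7 CPM in SPF sham and 24617.8 to 29381.5 CPM at day 3. In ABX mice it was 47213.9 to 56462.1 CPM and then 18135.3 to 31054.1 CPM. In GF mice sham and day 3 overlapped, at 39722.8 to 92646.9 CPM and 24799.7 to 43174.8 CPM. The summed level of 8 markers of border-associated macrophages was 1.28 to 8.88 CPM in SPF sham and 84.8 to 195 CPM at day 3. In ABX mice it was 4.75 to 26.2 CPM and then 84.5 to 185 CPM, and in GF mice 12.7 to 616 CPM and then 42.0 to 153 CPM. The summed level of 6 dendritic cell markers was 1.62 to 19.3 CPM in SPF sham and 45.2 to 54.8 CPM at day 3, and that of the monocyte markers 8.52 to 39.1 CPM and 38.9 to 79.6 CPM. Over the 27 libraries Cd163 and Lyve1 of the macrophage list, Clec9a and Xcr1 of the dendritic list and Vcan of the monocyte list had a median of 0. The part of these cells in the Tlr2 rise at day 3 was not tested.

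At day 7 Tlr2 rose by 2.36 ± 0.37 over the 3 conditions (edgeR adjusted p = 0.000226) and was called in all 18 fits that leave out 1 library, at 2.18 to 2.60. In that comparison 4 of the 10 genes were called, 2 up and 2 down, where 20.2% of all genes were. Tlr2 was again the only member above sham without overlap in all 3 conditions, as were 0.467% of genes. Within ABX mice the rise at day 7 was 3.19 ± 0.66 (edgeR adjusted p = 0.0159), the only member called where 0.945% of genes were. It was lost without replicate 1 of ABX ICH day 7, the library at 2557 CPM, and without each of the 3 ABX sham libraries. Within GF mice the rise was 2.46 ± 0.64 (edgeR adjusted p = 0.0121), with 2 members called, Tlr2 and Tlr12, where 14.4% of genes were. With limma voom it was 2.23 (adjusted p = 0.0676). Within SPF mice the value was 1.43 ± 0.61 (edgeR adjusted p = 0.897). In GF mice 4 members lay above sham at day 7 without overlap (Tlr1, Tlr2, Tlr4 and Tlr13), as did 5.34% of genes. In ABX mice 3 did (Tlr2, Tlr3 and Tlr13, 7.8% of genes) and 3 lay below (Tlr6, Tlr9 and Tlr12, 22.4% of genes), but without TMM factors Tlr3 overlapped. In SPF mice Tlr1 and Tlr2 lay above (5.94% of genes) and Tlr7 and Tlr13 below (4.62%).

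In the order of group means, Tlr2 ran from 114 CPM in GF sham to 1713 CPM in ABX ICH day 7. The 3 sham groups overlapped one another and lay below all others. The ICH groups from GF day 3 to GF day 7 overlapped their neighbours, and ABX ICH day 7 lay above all other libraries. Its value against SPF ICH day 7 was 1.98 ± 0.63 with no overlap, as for 6.38% of genes, but the test did not pass (edgeR adjusted p = 0.170). The difference between ABX and SPF in the day 7 response was 1.75 ± 0.86 (edgeR adjusted p = 0.395), and that between GF and SPF was 1.03 ± 0.86 (adjusted p = 0.488).

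**Figure D1:**
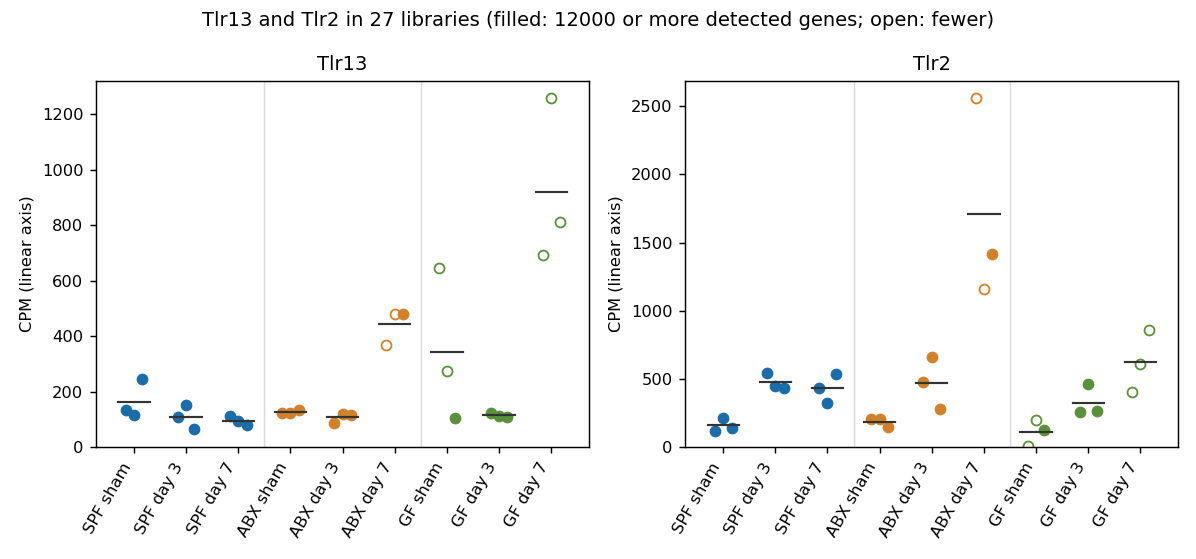
Levels of Tlr13 (left) and Tlr2 (right) in CPM on linear axes for the 9 groups of 3 libraries; each point is a library, bars are group means, and open points are libraries under 12000 detected genes. Tlr13 is highest in GF ICH day 7, at 695 to 1261 CPM, and Tlr2 in ABX ICH day 7, at 1160.3 to 2557 CPM.

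The partners of Tlr2 had lower and more scattered levels. Tlr1 and Tlr6 lie 18468 bases apart on chromosome 5, on the same strand. Tlr1 was at 45.2, 39.3 and 49.7 CPM in SPF sham and at 140, 65.1 and 83.1 CPM in SPF ICH day 7, without overlap (1.10 ± 1.05, edgeR adjusted p = 1). It was at 1.13, 42.6 and 38.5 CPM in GF sham and at 94.0, 289 and 229 CPM in GF ICH day 7. These groups did not overlap either, and the value was 2.90 ± 1.11 (edgeR adjusted p = 0.08). In ABX ICH day 7 it was at 0.948, 109 and 86.0 CPM. The lowest library of GF sham and that of ABX ICH day 7 are each replicate 1, both under 12000 detected genes.

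Tlr6 ranged from 4.00 to 43.2 CPM in SPF mice, in ABX sham and day 3 and in GF day 3. It was at 0, 0.610 and 18.1 CPM in GF sham and at 1.77 to 57.0 CPM in GF ICH day 7. The 7 libraries under 12000 detected genes include replicates 1 and 2 of ABX ICH day 7. Their median Tlr6 level was 1.77 CPM, against 24.8 CPM in the 20 others. The part of this in the Tlr6 levels was not tested. In ABX ICH day 3 Tlr6 was at 39.4, 4.00 and 33.0 CPM. In ABX ICH day 7 it was at 0.379, 2.63 and 2.18 CPM. This was below all ABX shams (24.9, 38.8 and 20.7 CPM), as for 22.4% of genes. The value against sham was -4.02 ± 1.71 (edgeR adjusted p = 0.21). In ABX ICH day 7 Tlr2 was at its highest and Tlr6 at its lowest mean of the 9 groups.

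Tlr4, at chr4:66827584-66930284, was lowest at day 3 in each condition by group mean. In SPF mice it was at 26.97, 77.7 and 65.8 CPM in sham, 16.4, 27.9 and 21.4 CPM at day 3, and 57.3, 41.5 and 42.1 CPM at day 7. In ABX mice it was at 107, 77.3 and 66.6 CPM, then 30.3, 41.3 and 40.8 CPM, then 238, 0.451 and 289 CPM. In GF mice it was at 50.6, 39.7 and 42.0 CPM, then 18.5, 34.0 and 30.3 CPM, then 271, 216 and 332 CPM. Replicate 2 of ABX ICH day 7 had almost no Tlr4 reads while the other 2 libraries of its group were above every SPF library. From day 3 to day 7 Tlr4 rose by 2.21 ± 0.58 over the 3 conditions (edgeR adjusted p = 0.0126). In that comparison it was 1 of 2 members called, where 20.1% of genes were. Within GF mice it rose by 3.30 ± 1.05 (edgeR adjusted p = 0.0364), 1 of 2 members called where 15.3% of genes were. The first call was kept in all 18 fits that leave out 1 library (2.02 to 2.41), and the second was lost in 5 of 6. With no filter on low counts the second had an adjusted p of 0.0599. With offsets for GC content per library, these values were 1.25 (adjusted p = 0.138) and 1.28 (adjusted p = 0.367), and with limma voom the first was 1.05 (adjusted p = 0.175). Tlr4 has the lowest GC content of the 10 genes, at 39.4%.

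Against sham, Tlr4 at day 3 was at -1.07 ± 0.56 over the 3 conditions (edgeR adjusted p = 0.474). Without the 7 libraries under 12000 detected genes it was at -1.05 ± 0.24 and passed the test (adjusted p = 0.0266). In that fit Tlr4 was also higher in ABX than in SPF mice over the 3 stages, by 1.25 ± 0.24 (edgeR adjusted p = 0.0195), where with all libraries it was 1.08 ± 0.56 (adjusted p = 0.496). The groups of ABX ICH day 7 and GF sham then hold 1 library each, assumed to vary like the others.

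**Figure D2:**
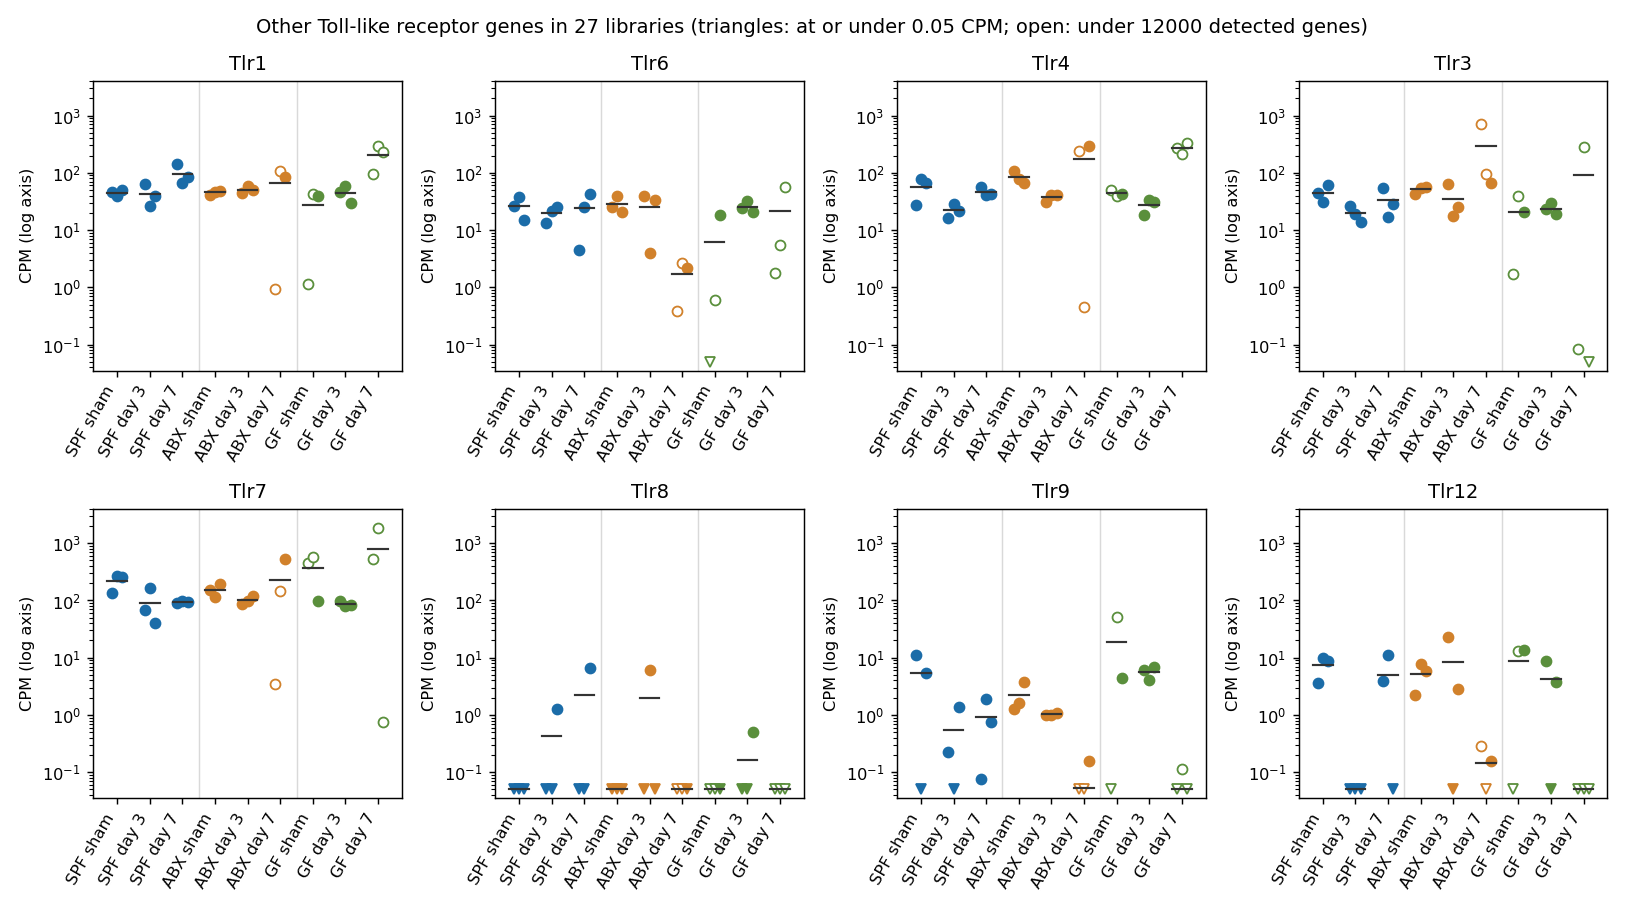
Levels of the other 8 Toll-like receptor genes in CPM on log axes for the 9 groups; points are libraries, bars are group means, open points are libraries under 12000 detected genes and triangles lie at or under 0.05 CPM. The lowest level of Tlr1, Tlr3, Tlr4, Tlr6 and Tlr7 is in each case that of a library under 12000 detected genes.

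Tlr7, a receptor of single-stranded RNA, was at similar levels in the 3 libraries of SPF ICH day 7 and scattered in ABX and GF ICH day 7. In SPF mice it was at 138, 263 and 259 CPM in sham, 68.4, 165 and 41.2 CPM at day 3, and 89.6, 97.4 and 95.1 CPM at day 7. In ABX ICH day 7 it was at 3.51, 147 and 528 CPM, and in GF ICH day 7 at 533, 1863 and 0.757 CPM. The 3 GF libraries at day 7 thus held both the highest and the lowest Tlr7 level of all 27. Against SPF mice the value at day 7 was 3.09 ± 1.31 (edgeR adjusted p = 0.112). Tlr3, the receptor of double-stranded RNA, was at 717, 93.4 and 66.0 CPM in ABX ICH day 7 and at 0.0842, 276 and 0 CPM in GF ICH day 7, against 13.6 to 60.3 CPM in all SPF libraries. ABX ICH day 7 did not overlap ABX sham (43.2 to 57.0 CPM), with a value of 2.51 ± 1.71 (edgeR adjusted p = 0.333). Without TMM factors these Tlr3 levels overlapped, at 42.5 to 341 CPM and 49.96 to 73.3 CPM. Of the GF ICH day 7 libraries, only replicate 2 had more than a few Tlr3 reads. At day 7 against sham in GF mice the Tlr3 value was 2.16 with all libraries (edgeR adjusted p = 0.349) and -8.87 without that library (adjusted p = 0.00263). Gm45542, on the opposite strand, overlaps Tlr3, and whether reads were counted by strand is not given in the sources used here.

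Tlr8 was at 0 in 23 of 27 libraries, among them all shams and all libraries of ABX and GF ICH day 7. Its other values were 0.495 CPM in 1 library of GF day 3, 1.27 CPM in 1 of SPF day 3, 6.03 CPM in 1 of ABX day 3 and 6.65 CPM in 1 of SPF day 7. No group had it in more than 1 library, and a count of 0 allows up to 3 counts. Its neighbour Tlr7, 40600 bases away on the X chromosome, had counts in every library.

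Tlr9 and Tlr12, the 2 members with the highest GC content (56.2% and 56.0%), were the members that fell. Tlr9 was at 11.1, 0 and 5.36 CPM in SPF sham, 1.27, 1.65 and 3.77 CPM in ABX sham and 0, 52.2 and 4.49 CPM in GF sham. At day 7 it was at 0.0760, 1.92 and 0.752 CPM in SPF mice, 0, 0 and 0.158 CPM in ABX mice and 0, 0.113 and 0 CPM in GF mice. Over the 3 conditions Tlr9 fell by 5.60 ± 1.60 on the log2 scale (edgeR adjusted p = 0.0195). The call was lost without replicate 1 or replicate 3 of SPF ICH day 7, and sham and day 7 overlapped in SPF and GF mice. At day 3 Tlr9 was at 6.08, 4.12 and 6.79 CPM in GF mice and at 0.227, 0 and 1.38 CPM in SPF mice. The test did not pass there, with a value of 3.40 ± 2.48 (edgeR adjusted p = 1).

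Tlr12 was at 3.60, 9.90 and 8.69 CPM in SPF sham, 2.24, 7.69 and 5.76 CPM in ABX sham and 0, 13.2 and 13.6 CPM in GF sham. At day 7 it was at 3.97, 11.1 and 0 CPM in SPF mice, 0.284, 0 and 0.158 CPM in ABX mice and 0 in all 3 GF libraries. Tlr12 was called lower at day 7 over the 3 conditions (edgeR adjusted p = 0.0276) and within GF mice (adjusted p = 0.0467). The first call was lost in 7 of 18 fits that leave out 1 library. By group means the GF level at day 7 was at least 146.5-fold lower than in GF sham, taking 3 counts per library as the floor. That floor covers counting error only and not the loss of transcripts from libraries with few detected genes. GF sham replicate 1 was at 0 too, so sham and day 7 overlapped. The call within GF mice was lost in 5 of 6 fits that leave out 1 library, and also with limma voom, without the filter and with GC offsets. At day 3 Tlr12 was at 0 in all 3 SPF libraries, each with 14078 to 15331 detected genes, and at 22.7, 0 and 2.83 CPM in ABX mice. Both genes were at 0 in some library of 12000 or more detected genes, where their medians were 1.33 (Tlr9) and 3.72 CPM (Tlr12). In the 7 libraries with fewer, both medians were 0. There GF sham replicate 2 was highest (52.2 and 13.2 CPM), and no other library exceeded 0.113 CPM for Tlr9 or 0.284 CPM for Tlr12. Over the 27 libraries their log2 levels correlated with the number of detected genes at 0.69 and 0.46. The part of library complexity in the falls at day 7 was not tested.

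Tlr13 lies at chrX:106143204-106160493 on the plus strand. The part of its RefSeq promoter window upstream of the annotated gene, chrX:106143025-106143203 (GRCm38.p6), is shown because Tlr13 was called between GF and SPF mice. Capitals mark GAGGAA, the core of the motif of Spi1, a factor of the macrophage lineage.
Tlr13: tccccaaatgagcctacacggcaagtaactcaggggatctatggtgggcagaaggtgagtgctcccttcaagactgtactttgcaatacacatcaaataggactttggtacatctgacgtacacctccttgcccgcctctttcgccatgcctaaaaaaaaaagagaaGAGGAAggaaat
GAGGAA, on either strand, is found in 28.3% of windows and in those of 4 of the 8 members with a window (Tlr1, Tlr8, Tlr9 and Tlr13). The κB consensus has no match in the Tlr13 window of 300 bases.

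Tlr13 stood at 133, 115 and 245 CPM in SPF sham, 110.1, 153 and 67.5 CPM at day 3 and 112, 95.7 and 80.7 CPM at day 7. In ABX mice it was at 123, 123 and 136 CPM in sham, 88.6, 119.9 and 118 CPM at day 3 and 369, 481 and 482 CPM at day 7. In GF mice it was at 645, 276 and 107 CPM in sham, 123, 112 and 110.5 CPM at day 3 and 695, 1261 and 811 CPM at day 7. At day 7 the GF libraries lay above all ABX libraries. This difference was not tested, and the share of all genes that separate in this way was not counted. The ABX libraries in turn lay above all SPF libraries, as for 6.38% of genes. Relative to sham, day 7 was lower without overlap in SPF mice and higher without overlap in ABX and GF mice, with or without TMM factors. At day 3 the 3 conditions overlapped, at 67.5 to 153 CPM.

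From day 3 to day 7 Tlr13 rose by 1.61 ± 0.30 over the 3 conditions (edgeR adjusted p = 0.00124). It was called in all 18 fits that leave out 1 library, at 1.51 to 1.71, and was 0.90 with GC offsets (adjusted p = 0.0401). Within GF mice it rose by 3.00 ± 0.54 (edgeR adjusted p = 0.00136) and was called in all 6 such fits. With GC offsets that value was 1.59 (adjusted p = 0.0435). Within ABX mice it was 2.03 ± 0.52 (edgeR adjusted p = 0.0628), and within SPF mice -0.20 ± 0.51 (adjusted p = 1).

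Between conditions at day 7, Tlr13 was the 1 member called between GF and SPF mice, where 12.9% of genes were. It was higher in GF mice by 3.26 ± 0.55 (edgeR adjusted p = 0.00144), at 2.97 to 3.43 in the 6 fits that leave out 1 library, all called. With GC offsets it was 2.14 (adjusted p = 0.0125). Without TMM scaling the means were 728 CPM in GF and 105 CPM in SPF mice. Between ABX and SPF mice the value was 2.20 ± 0.53 with no overlap, but the test did not pass (edgeR adjusted p = 0.0943). It passed with DESeq2 (2.01, adjusted p = 0.00135) and with limma voom (2.36, adjusted p = 0.00666). With replicate 3 alone of ABX ICH day 7, which has 14221 detected genes, the value was 2.08. The spread of a single library is taken from the other groups. That library had a TMM factor of 0.644 and summed monocyte markers at 809 CPM. Over the 3 stages, Tlr13 was higher in GF than in SPF mice by 1.46 ± 0.30 (edgeR adjusted p = 0.048), the only member called where 0.125% of genes were. This call was lost in 13 of 18 fits that leave out 1 library and with GC offsets (1.28, adjusted p = 0.0554). In sham and at day 3 GF and SPF overlapped, with values of 1.06 ± 0.51 in sham (edgeR adjusted p = 0.671) and 0.06 ± 0.50 at day 3 (adjusted p = 1).

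Against sham over the 3 conditions, Tlr13 rose by 0.82 ± 0.29 at day 7 (edgeR adjusted p = 0.0499), a mean of opposed values: -0.77 ± 0.51 in SPF, 1.80 ± 0.52 in ABX and 1.43 ± 0.51 in GF mice. This call was lost in 16 of 18 fits that leave out 1 library, with no filter on low counts (adjusted p = 0.159), with DESeq2 size factors (0.47) and with GC offsets (0.27, adjusted p = 0.581). In GF mice alone the value with GC offsets was -0.01.

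**Figure D3:**
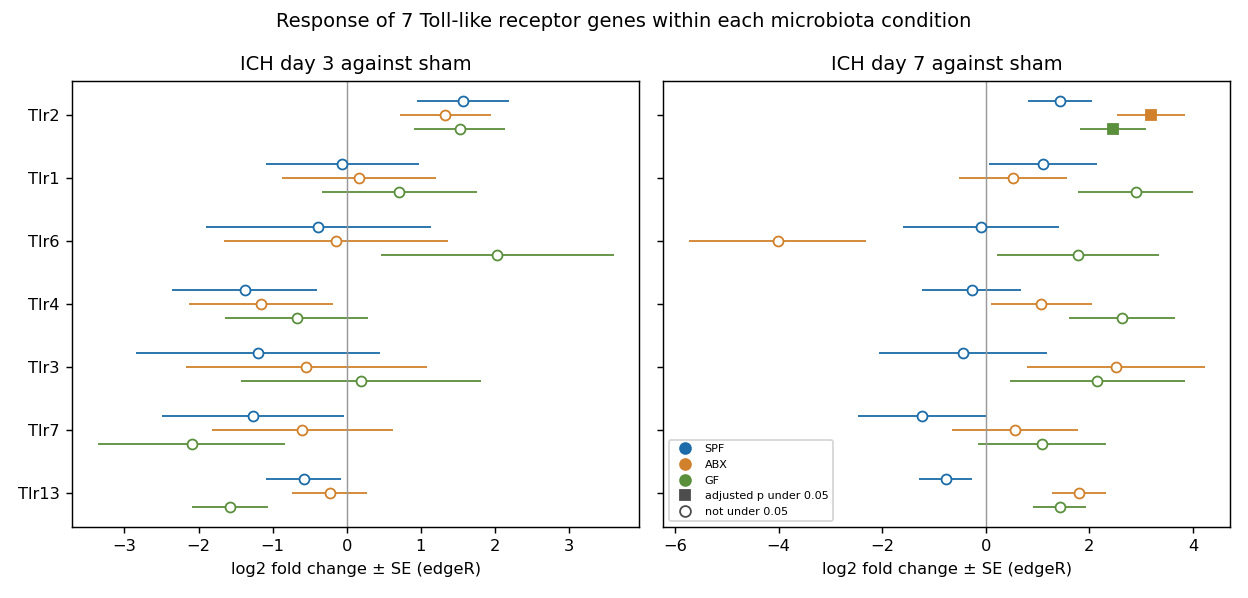
Log2 fold change against sham ± SE from edgeR for 7 Toll-like receptor genes at day 3 (left) and day 7 (right) within SPF, ABX and GF mice; filled squares have an adjusted p under 0.05. Tlr2 lies right of 0 in all 6 comparisons, while Tlr13 at day 7 lies left of 0 in SPF mice (-0.77) and right of 0 in ABX (1.80) and GF mice (1.43).

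Tlr13 was higher in libraries with fewer detected genes. Over the 27 libraries its log2 level correlated with the number of detected genes at -0.82. It also correlated at -0.81 with the log2 level of GC-rich relative to GC-poor abundant genes in each library. It was at 276 to 1261 CPM in the 7 libraries under 12000 detected genes. In the 20 others it was at 67.5 to 245 CPM, except for replicate 3 of ABX ICH day 7 at 482 CPM. The part of library complexity in the Tlr13 result was not tested beyond the fits above. In GF ICH day 7 it cannot be told apart from the group, since none of the 3 libraries reaches 12000 detected genes. Fold changes also moved with the GC content of genes: over 1649 abundant genes, GF against SPF at day 7 had a Spearman correlation with GC content of -0.63, or 0.20 after GC offsets. These points share the same 6 libraries. Tlr13 has a GC content of 43.6%.

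**Figure D4:**
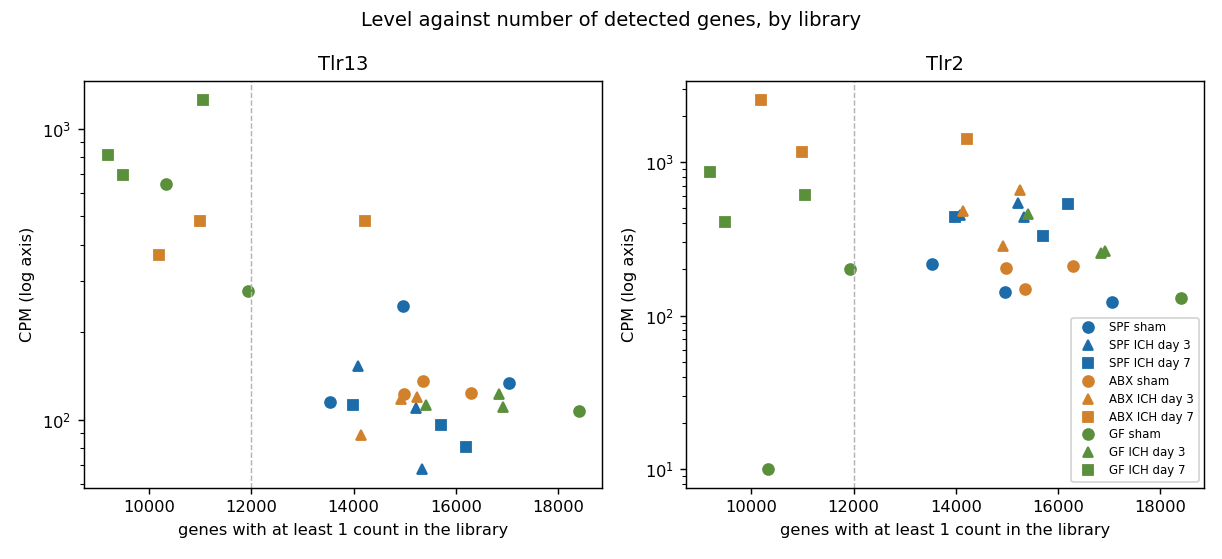
Level in CPM on a log axis against the number of detected genes for Tlr13 (left) and Tlr2 (right); each point is a library, shape gives the stage and colour the condition, and the dashed line is at 12000 genes. Tlr13 is at 276 CPM or more in all 7 libraries left of the line, whereas Tlr2 ranges from 9.95 to 2557 CPM there.

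In the other comparisons no member was called by edgeR, and the counts below are of members with an unadjusted p under 0.05, beside the share of all genes at that p. At day 3 against sham these were 2 members in SPF mice (7.26% of genes), 1 in ABX mice (8.27%) and 2 in GF mice (5.29%). By adjusted p, 0.102%, 0.125% and 0.00569% of genes were called there. In SPF mice 1 member had such a p at day 7 against sham (5.01% of genes, 0.0797% called) and 1 at day 7 against day 3 (4.09%, 0 called). In ABX mice 4 did at day 7 against day 3 (20.8% of genes, 0.728% called). Between ABX and SPF mice 3 members did at day 7 (19.4% of genes, 0.0854% called) and 2 over the stages (10.7%, 0 called). In sham and at day 3 each comparison between conditions had at most 1 such member. The shares of genes were 4.05% for ABX and 6.22% for GF against SPF in sham (0 and 0.00569% called), and 4.89% and 3.46% at day 3 (0 called in either). The difference in response between GF and SPF mice at day 7 had 3 such members (25.2% of genes, 7.04% called). The others had 1 each, where 5.58% of genes (ABX at day 3), 12.7% (ABX at day 7) and 5.68% (GF at day 3) had such a p and 0 were called.

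Single libraries stood far from the rest for several members. Of the 7 members with a median of at least 10 CPM, 13 of 49 values (26.5%) in the 7 libraries under 12000 detected genes were more than 10-fold below the gene's median. None of 140 values in the other 20 libraries was. Over all 6083 tested genes with such a median, the shares were 43.0% and 2.17%. GF sham replicate 1 held 4 of the 13 values (Tlr1, Tlr2, Tlr3 and Tlr6), ABX ICH day 7 replicate 1 held 3 (Tlr1, Tlr6 and Tlr7), and Tlr13 held none. Values above 10 times the median were 3 of 49 in the same 7 libraries, or 6.12%, against 3.29% for all such genes.

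The members' median log2 fold change over the 3 conditions was 0.98 at day 7 against sham, where the median of all tested genes was -1.24. In GF mice alone the values were 1.60 for the members and -2.10 for all genes. With DESeq2 size factors in place of TMM the median of all genes in that comparison moved by a further -0.53. At day 3 against sham the members' median was -0.65 and that of all genes -0.06. The 2 sets differ in level: 7 of 10 members had a median of at least 10 CPM, against 6083 of 17573 tested genes. No set of genes matched in level was compared.

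Of the genes that carry receptors to their place or help them bind ligand, 4 of 12 rose and 4 fell at day 7 against sham over the 3 conditions, where 20.2% of all genes were called. That share is the background for each list at day 7 against sham below. Ly86 and Cd180, partners in a Toll-like receptor complex on the surface, rose by 1.16 ± 0.17 (edgeR adjusted p = 0.000119) and 2.51 ± 0.46 (adjusted p = 0.00107). The chaperone Hsp90b1 rose by 0.96 ± 0.21 and the lipid receptor Cd36 by 7.93 ± 1.56, the latter from levels of at most 0.505 CPM in sham. Unc93b1, which takes the endosomal receptors to the endosome, fell by 1.33 ± 0.34 (edgeR adjusted p = 0.011). It was at 1033, 1253 and 623 CPM in SPF sham and at 250, 94.2 and 669 CPM in GF ICH day 7. The protease Lgmn (-0.66 ± 0.18) and the transporter Slc15a4 (-3.71 ± 0.84) fell as well. Lbp, which brings lipopolysaccharide to Cd14, was called lower too and was at 0 in 18 of 27 libraries. The Lbp call was lost in 13 of 18 fits that leave out 1 library. With GC offsets 3 of the 12 rose and 1 fell, and with limma voom 4 rose and 2 fell. From day 3 to day 7 the transporter Slc15a3 (-4.29 ± 1.19) fell too.

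Of the partners of Tlr4, Cd14 fell by 1.13 ± 0.27 at day 3 over the 3 conditions (edgeR adjusted p = 0.0369) and was at -0.46 ± 0.27 at day 7 (adjusted p = 0.231). Ly96 was at 362, 59.5 and 77.4 CPM in ABX ICH day 7 and at 30.2, 43.8 and 34.3 CPM in ABX sham. Over the 3 conditions its value at day 7 was 0.96 ± 0.64 (edgeR adjusted p = 0.302). At day 3 the co-receptor list had 1 rise, Cd36 (5.89 ± 1.42), and 1 fall, Cd14, where 1.3% of all genes were called. The call of Cd14 at day 3 was lost in 15 of 18 fits that leave out 1 library and that of Cd36 in 17.

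Of the 6 adaptors, Ticam1 fell at day 7 against sham (-5.63 ± 1.63, edgeR adjusted p = 0.0211) and none rose. Leaving out 1 library gave 0 to 2 falls, and the Ticam1 call was lost in 3 of 18 such fits. Sarm1, an adaptor that dampens signals, was called lower from day 3 to day 7 and was at 0 in 20 of 27 libraries. Myd88 was at 55.8, 173 and 67.9 CPM in SPF sham and at 181, 1.02 and 0.336 CPM in GF ICH day 7. Its value at day 7 over the 3 conditions was -0.62 ± 0.77 (edgeR adjusted p = 0.653). Of 15 kinases and ligases 4 fell at day 7 against sham and none rose: Irak4 (-3.09 ± 0.91), Tab2 (-4.00 ± 0.90), and Irak1 and Tab1, which were at 0 in all 3 libraries of GF ICH day 7, so that their fitted values hold no bound. Leaving out 1 library gave 3 to 7 falls and 0 to 2 rises in this list, and the Irak4 call was lost in 3 of 18 fits. From day 3 to day 7 the same 4 were called lower and Ube2n, a partner of Traf6 in ubiquitin transfer, rose by 1.26 ± 0.30. Traf6 was at -2.94 ± 1.37 at day 7 against sham (edgeR adjusted p = 0.122), and Ikbke was called lower within GF mice.

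Of the 8 transcription factors 5 fell at day 7 against sham and none rose. Irf5, which acts below Myd88, was at -3.84 ± 0.74, Rela at -4.20 ± 0.80, Nfkb1 at -2.19 ± 0.67, Jun at -2.77 ± 0.59 and Fos at -4.57 ± 0.78, all called. With limma voom 3 were called. Leaving out 1 library gave 4 to 6 falls, and the Nfkb1 call was lost in 4 of 18 fits. Within SPF mice 0 of the 8 were called, also leaving out 1 library. Within ABX mice 1 was called lower (0 to 2 leaving out 1 library) and within GF mice 4 (4 to 5). Irf7 was at 1.61 ± 1.14 (edgeR adjusted p = 0.336). Of 8 inhibitors 2 fell (2 to 4 leaving out 1 library), Tnfaip3 (-3.55 ± 0.88) and Socs3, which was at 0 in all GF ICH day 7 libraries. Within GF mice Tollip was called lower as well, and with DESeq2 6 of the 8 fell. Irak3 was at 0 in all 3 GF libraries at day 7 and was called lower there than in SPF mice. Nfkbia was at -1.12 ± 0.57 (edgeR adjusted p = 0.164). None of the 3 libraries of GF ICH day 7 reached 12000 detected genes, and the part of this in these falls was not tested. Over 1649 abundant genes, fold changes at day 7 against sham had a Spearman correlation with GC content of -0.43. GC content was 51.9% to 59.4% in Irf5, Rela, Jun, Fos and Socs3, 44.9% in Nfkb1 and 47.1% in Tnfaip3. Values with GC offsets are not given here for these lists, the adaptors or the kinases and ligases.

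Of the 12 cytokine and effector genes downstream, 9 were tested, and 5 rose at day 7 against sham with none lower (3 with limma voom). Ccl3 rose by 1.66 ± 0.38, Ccl4 by 2.41 ± 0.41 (edgeR adjusted p = 0.000477), Ccl5 by 2.95 ± 1.02, Cxcl10 by 3.50 ± 1.12 and Il1b by 4.28 ± 1.09. Leaving out 1 library gave 3 to 5 rises and 0 to 1 falls, with the call of Ccl5 lost in 14 of 18 fits and that of Cxcl10 in 9. Ccl4 was at 1841, 301 and 428 CPM in ABX ICH day 7 and at 344, 347 and 354 CPM in GF ICH day 7, against 27.1 to 174 CPM in all shams. Il1b was the 1 gene of the list called at day 3, at 4.48 ± 1.10 (edgeR adjusted p = 0.0402), and that call was lost in 17 of 18 fits that leave out 1 library. It was at 162, 39.3 and 158 CPM in GF ICH day 7 and at 0.664, 0.0361 and 3.75 CPM in ABX ICH day 7. Tnf was at -2.72 ± 1.31 at day 7 (edgeR adjusted p = 0.136). Of the other mouse Toll-like receptor genes, Tlr5, the flagellin receptor, was called lower at day 7 against sham (edgeR adjusted p = 0.0311) and was at 0 in all GF ICH day 7 libraries. The Tlr5 call was lost in 10 of 18 fits that leave out 1 library. Tlr11 was called in none of the 24 comparisons and had at most 0.955 CPM.

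The genes whose log2 levels followed Tlr13 most closely over the 27 libraries, of 6901 with a mean of at least 10 CPM, were Tmem167 (Pearson r = 0.90), Cd84 (0.90), Vps35 (0.90), Bnip3l (0.89) and mt-Nd2 (0.88). For Tlr2 they were Tpm4 (0.93), Bnip3 (0.93), Snrpf (0.91), Ap3s1 (0.90) and Ube2l3 (0.89). For Tlr7 they were Sqor (0.94), Hltf (0.93), Ppp3r1 (0.93), Mmadhc (0.92) and Elf2 (0.92). These values are descriptions, and the points share groups, depth and the libraries with few detected genes.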

How the data were processed

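RNA of sorted microglia was amplified with the SMART-Seq v4 low-input kit, per the labels' protocols. The authors deposited whole-number counts per gene for 27 libraries. Tools in the submitters' processing notes are HISAT2 2.0.4 and StringTie 1.3.4d, cutadapt 1.9, edgeR and the mm10 build, with no order given; the annotation release, the strand setting and how counts were derived are not given in the sources used here. All columns were matched to samples by name (0 left over). Symbols, positions and exon lengths came from GENCODE M21, which named 52073 of 56691 gene identifiers.

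Counts as deposited were filtered with filterByExpr (17573 genes, 99.94% of counts), scaled with TMM (factors 0.476 to 1.31) and fitted over all 9 groups with edgeR 4.0.16 in R 4.3.3 (quasi-likelihood test, common biological coefficient of variation 1.54). The 24 comparisons covered stages, conditions and differences in response, with adjusted p under 0.05 as the threshold. Values ± are SEs. Within groups, libraries correlated at 0.626 to 0.874 and no columns were identical. Intervals and floors cover counting error only, since no molecular identifiers are recorded.

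The alternatives were DESeq2 1.42.0, limma 3.58.1 voom with quality weights, DESeq2 size factors, no filter, a replicate block, leaving out each library, leaving out libraries under 12000 detected genes, and GC offsets per library (a spline with 6 degrees of freedom on 1649 genes with a mean of at least 100 CPM). On data simulated for day 3 against sham over the conditions with 17573 genes, the fit recovered 73 of 100 genes changed by 3 on the log2 scale and 97 of 100 changed by 5, with 6 false calls. The changed genes were drawn from abundant genes only, with means above those of Tlr6, Tlr8, Tlr9 and Tlr12. The simulated data held no libraries with few detected genes and no trend with GC content, so these counts do not cover either.

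The members and gene lists were chosen with earlier results of these data known. The text names every member, each pathway gene called in any comparison, 12 pathway genes regardless of their values, and the 5 genes most like Tlr2, Tlr7 and Tlr13.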

Additional observations from a re-analysis of the deposited data

Results flagged for a closer look

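The Tlr13 value at day 7 against sham was below 0 in SPF mice and above 0 in ABX and GF mice, none of them called. All 3 SPF libraries at day 7 lay below all SPF shams, as for 4.62% of genes. The gap was narrow, with the highest SPF library at day 7 at 112 CPM and the lowest SPF sham at 115 CPM. All 3 ABX and all 3 GF libraries at day 7 lay above their shams, as for 7.8% and 5.34% of genes. The difference between the ABX and the SPF response was 2.57 ± 0.73 on the log2 scale (edgeR adjusted p = 0.369), and that between the GF and the SPF response was 2.20 ± 0.72 (adjusted p = 0.0638). Neither passed the test. Over its other settings the adjusted p of the first ran from 0.0143 with DESeq2 to 0.504 without the filter. Leaving out 1 library it ran from 0.162 to 0.564. That of the second ran from 0.00812 with limma voom to 0.641 with GC offsets, where the difference was 0.65. Leaving out 1 library it ran from 0.00777 to 0.211 and passed in 1 of 12 fits, without replicate 1 of GF sham (difference 3.04). Tlr13 in 2 of 3 ABX and all 3 GF libraries at day 7 was read in libraries under 12000 detected genes, and the part of this in the pattern was not tested further.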

How the results depend on the processing

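The counts here are of Toll-like receptor genes called out of 10. The number of all genes called also changes with the method, and it is given for 1 comparison only, at the end of this paragraph. A higher count of members under an alternative is therefore no result about these receptors. For day 3 against sham over the conditions (1 called) the count was 2 with DESeq2, 0 with DESeq2 size factors, 0 without the filter, 2 without libraries under 12000 detected genes and 0 to 1 leaving out 1 library. For day 7 against sham over the conditions (4) it was 3 with DESeq2, DESeq2 size factors, no filter, GC offsets or the replicate block, and 1 to 4 leaving out 1 library. For day 7 against day 3 over the conditions (2) it was 1 with GC offsets and 2 to 3 leaving out 1 library. For ABX against SPF over the stages (0) it was 1 without those libraries. For GF against SPF over the stages (1) it was 0 without the filter, 0 with GC offsets and 0 to 2 leaving out 1 library. Within SPF, day 3 against sham (0) gave 1 with DESeq2, 2 with limma voom and 1 without those libraries, and day 7 against day 3 (0) gave 1 with DESeq2. Within ABX, day 7 against sham (1) gave 4 with DESeq2, 2 with voom, 2 without those libraries and 0 to 1 leaving out 1 library. Day 7 against day 3 within ABX (0) gave 3 with DESeq2, 2 with voom, 3 without those libraries and 0 to 1 leaving out 1 library. Within GF, day 3 against sham (0) gave 1 with DESeq2. Day 7 against sham within GF (2) gave 4 with DESeq2, 1 with voom, 1 without the filter, 1 with GC offsets and 1 to 4 leaving out 1 library. Day 7 against day 3 within GF (2) gave 5 with DESeq2, 4 with voom, 1 without the filter, 1 with GC offsets and 1 to 3 leaving out 1 library. ABX against SPF gave 1 with DESeq2 at day 3 (0), and at day 7 (0) 3 with DESeq2, 2 with voom and 4 without those libraries. GF against SPF gave 1 with DESeq2 at day 3 (0), and at day 7 (1) 4 with DESeq2, 2 with voom and 1 to 2 leaving out 1 library. The ABX difference in response (0) gave 1 with DESeq2 at day 3, and at day 7 1 with DESeq2 and 2 without those libraries. The GF difference at day 7 (0) gave 1 with DESeq2, 1 with voom and 0 to 1 leaving out 1 library. No member's value called over all libraries turned its sign under these alternatives. Tlr3, called nowhere over all libraries, was called lower in 6 comparisons without GF ICH day 7 replicate 2, each with its sign turned: -2.26 (from 1.41) for day 7 against sham over the conditions, -8.87 (from 2.16) within GF, and -9.56 (from 1.46) for GF against SPF at day 7 among them. The causes were not tested. Over all genes, day 3 against sham over the conditions called 229, with 1642 in DESeq2, 909 in voom and 555 without those libraries.

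With the replicate block, GF against SPF over the stages gave 0 and day 7 against sham within GF gave 1. No label says what libraries of the same number share. Deviations of same-numbered libraries had a median correlation of 0.00724 over 108 pairs (-0.183 to 0.181). Those of different numbers had -0.00131 over 216 pairs. Such medians cannot tell whether a number stands for a shared day or batch. Leaving out libraries under 12000 detected genes could not be fitted where GF ICH day 7 enters, since none are left, and leaves 1 library each in ABX ICH day 7 and GF sham, assumed to vary like the other groups. DESeq2 size factors moved the median of all genes by -0.27 in day 7 against sham over the conditions.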
